A study of Sus scrofa with 18 samples.

Results

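SST, the gene of the peptide somatostatin, and SCG2, the gene of secretogranin II, encode neuropeptide precursors of retinal neurons. They are 2 of the 6765 genes named on the array, and each was measured by 1 of the 24123 probe sets in the deposited table. These 2 probe sets are all those whose single gene symbol in the platform annotation is SST or SCG2, and both were bright enough to be tested. SST was selected on its wide spread between retinas and SCG2 on its diet difference in these arrays, so those values are given as descriptions.

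Somatostatin is made by sparse amacrine cells, inhibitory interneurons of the inner retina, and acts through G protein-coupled receptors that lower cyclic AMP. In rabbit the cell bodies that contain it lie mostly in the ventral retina. Secretogranin II is a granin, an acidic protein of the dense-core secretory granules that store peptides, and is cut by prohormone convertases into secretoneurin and other peptides. Transcription of both genes is known to respond to cyclic AMP and the transcription factor CREB.

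The 18 retinas came from male Landrace and Large White crossbred piglets, enrolled at 3 days of age and sampled at postnatal day 38. The sialyllactose group of 9 piglets was fed pig milk replacer supplemented with sialyllactose, in which sialic acid is joined to lactose, and the control group of 9 received the milk replacer without it. All were kept under 12 hours of light a day, and the labels name no genetic modification, no dose and no part of the retina taken. Total RNA of each retina was hybridised to 1 Affymetrix pig array, and levels are RMA values on a log2 scale, where a step of 1 is a doubling of the signal. The retina label was borne out by rod arrestin SAG at a mean of 10.6, cone arrestin ARR3 at 9.63 and the Müller glia genes GLUL at 10.5 and RLBP1 at 8.85, each on its own probe set. Pairs of arrays correlated at 0.981 to 0.992 over the 16799 probe sets tested. Whole tissue was measured, so fewer cells of a type and less RNA per cell cannot be told apart.

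SST stood far higher in 2 retinas, 1 of each diet, than in the other 16. In sialyllactose retinas SST ranged from 2.55 through a median of 3.17 to 6.91, the highest value, in replicate 1, and the next was 3.65. In control retinas it ranged from 2.83 through a median of 3.21 to 6.22, in replicate 4, followed by 4.40 in replicate 5 and 4.21 in replicate 9. The signal of sialyllactose replicate 1 was 13.2-fold, and that of control replicate 4 was 8.19-fold, over the median of all 18 retinas. Between the highest and the lowest retina, both on sialyllactose, SST differed 20.6-fold. The 2 groups overlapped over nearly the whole range.

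SCG2 was a bright and far more even probe set. In sialyllactose retinas it ranged from 8.12 in replicate 9 through a median of 8.53 to 9.01 in replicate 6, with 8.82 in replicate 8 as the second highest. In control retinas it ranged from 7.99 in replicate 2 through a median of 8.26 to 8.37 in replicate 8. The groups overlapped: 6 of 9 sialyllactose retinas lay above the highest control retina, and 2 control retinas lay below the lowest sialyllactose retina. The highest retina exceeded the lowest 2.03-fold.

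**Figure D1:**
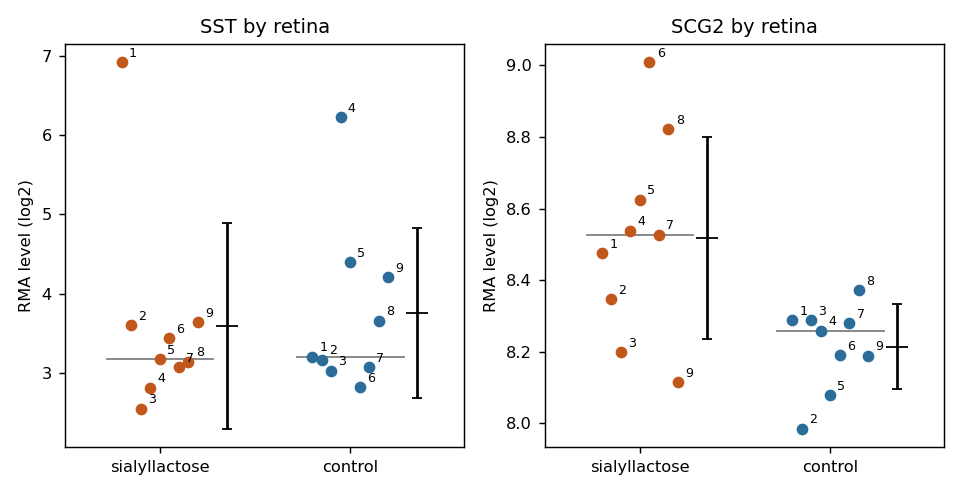
Log2 RMA levels of SST (left) and SCG2 (right) in each retina, sialyllactose left of control; points are single retinas with their replicate numbers, grey lines are medians, and black bars are means ± SD over 9 retinas. SST is highest in sialyllactose replicate 1 (6.91) and control replicate 4 (6.22), and 6 of 9 sialyllactose retinas lie above the highest control retina for SCG2.

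The spread of SST between retinas on the same diet was among the widest on the array. Its within-diet SD was 1.19 on the log2 scale, 7.63 times the median of 0.156 over the tested probe sets. It held rank 4 of 5710 genes, each taken at its brightest tested probe set, behind the interferon-induced genes ISG15 (1.74), RSAD2 (1.47) and ISG12(A) (1.42). The next were ALDH1A1, a retinaldehyde dehydrogenase, at 1.19 and the interferon-induced GBP1 at 1.16. Without the 2 retinas of highest SST its SD was 0.491 and its rank 73. Thus the rank of SST rested in large part on those 2 retinas, although the SD of the remaining 16 was still above the median SD of the array. SCG2 had a within-diet SD of 0.217 and ranked 793 of 5710 genes.

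Other peptide and amacrine genes did not vary on that scale. Of 28 further peptide precursor genes considered, 17 had a named probe set and 11 were tested, with SDs from 0.133 for TAC3, the neurokinin B precursor, to 0.419 for NPY, neuropeptide Y. NPY ranged from 1.98 through 2.36 to 2.98 in sialyllactose retinas and from 2.16 through 2.48 to 3.31 in control retinas. The SD of NPY was close to the 0.491 of SST without its 2 highest retinas. Precursors such as NPY and PDYN were dim, at means of 2.56 and 2.01, and RMA shrinks differences of dim probe sets. The 5 tested amacrine genes had SDs from 0.0793 for MEIS2 to 0.193 for CALB2, the calcium-binding protein calretinin. GAD1 and GAD2, which make the inhibitory transmitter GABA in most amacrine cells, had SDs of 0.152 and 0.145. In sialyllactose replicate 1, where SST was highest, GAD1 was the highest of its group at 7.61, against a group median of 7.29, and CARTPT, the precursor of CART peptides, was the highest at 7.13, against a group median of 6.64. In control replicate 4, the other retina of high SST, GAD1 was at 7.39, rank 5 of 9 in its group, and CARTPT at 6.74, rank 3 of 9.

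The diet comparison asked whether supplementation with sialyllactose was accompanied by another level of either gene. In limma, 0 of 16799 probe sets passed an adjusted p of 0.05, a percentage of 0, and 6.3% had an unadjusted p under 0.05 (2.94% higher and 3.36% lower with sialyllactose). Against this background neither SST nor SCG2 passed.

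SST averaged 3.60 ± 1.29 in sialyllactose retinas and 3.76 ± 1.07 in control retinas (log2, SD, n = 9 each). The difference was -0.16 with a 95% interval of -1.18 to 0.86 and a limma adjusted p of 0.977. In 4 of 9 sialyllactose retinas SST lay above the control median, and the medians differed by -0.03. The difference was -0.57 without sialyllactose replicate 1 and turned to 0.15 without control replicate 4, so its direction rested on which of these retinas was counted.

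SCG2 averaged 8.52 ± 0.28 in sialyllactose retinas and 8.21 ± 0.12 in control retinas (log2, SD, n = 9 each). The difference was 0.30, a fold of 1.23, with a 95% interval of 0.10 to 0.50. It lay on rank 100 of 16799 by p, and its limma adjusted p of 0.691 did not pass. In 7 of 9 sialyllactose retinas SCG2 was above the control median. The SD of the sialyllactose group was 2.37 times that of the control group. Leaving out single retinas gave differences from 0.24 without sialyllactose replicate 6 to 0.35 without sialyllactose replicate 9. In the same arrays 12 of 14 tested Müller glia genes and 9 of 9 tested vessel genes had lower means with sialyllactose, beside 3237 of all 5708 genes. In each of the 2 lists 3 genes had an unadjusted limma p under 0.05, beside 320 of all 5708 genes. The summed Müller glia level ran from 12.03 to 12.30 in sialyllactose retinas and from 11.98 to 12.47 in control retinas, and that of the vessel genes from 6.82 to 7.38 in sialyllactose retinas and from 6.94 to 7.45 in control retinas (log2). Their part in the SCG2 difference was not tested.

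Between retinas on the same diet the levels of SST and SCG2 showed no detectable relation. Deviations from the diet mean had a Pearson r of -0.02 (p = 0.929) and a Spearman rho of -0.08 (p = 0.766) over 18 retinas, by a two-sided permutation test within diets. Among sialyllactose retinas alone r was -0.04 (two-sided exact permutation p = 0.898) and rho -0.17 (exact p = 0.678). Among control retinas alone r was 0.01 (two-sided exact permutation p = 0.971) and rho -0.15 (exact p = 0.708). All 6 p-values were 0.971 after Benjamini-Hochberg adjustment by the permutation tests. Sialyllactose replicate 1, highest for SST, was sixth for SCG2, and sialyllactose replicate 6, highest for SCG2, was eighth for SST. The sign of r turned in 3 of the fits that left out 1 retina, with all values close to 0.

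Genes that varied with SST were then sought in a limma fit of every other probe set on the SST deviation with diet as a term. In that fit 0 of 16798 probe sets passed, a percentage of 0, with a lowest adjusted p of 0.552, and 4.08% had an unadjusted p under 0.05 (2.3% rising and 1.77% falling with SST). The genes named next are those with the highest and lowest correlations, and none passed the test. Their r with SST is given over 18 retinas and again over the 16 retinas without the 2 of highest SST.

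Among genes taken at their brightest probe set, the highest correlation with SST was that of BMP7, a bone morphogenetic protein, with r of 0.76 and rho of 0.55. BMP7 was dim, at 1.23 through 1.65 to 2.58 in sialyllactose retinas and 1.26 through 1.67 to 2.27 in control retinas. Its highest values were those of sialyllactose replicate 1 and control replicate 4, the same retinas as for SST, and over the other 16 r was 0.20. BMP7 passed the limma test only without control replicate 5 (r 0.87, adjusted p = 0.0212), and over the 18 fits without 1 retina its adjusted p ranged up to 0.9999. PRDX6, a peroxiredoxin that reduces lipid peroxides, had an r of 0.70 and a rho of 0.73, with r of 0.56 over the 16 retinas. It too was highest in sialyllactose replicate 1, at 5.95 against a group median of 5.84, and in control replicate 4, at 6.08 against a group median of 5.82.

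The other genes with high correlations were LOC100525232 (r 0.74), the ubiquitin ligase RNF181 (0.71), the neuronal actin-binding profilin PFN2 (0.69), the cytokine receptor subunit IL27RA (0.69), the transcription factor NFIA (0.68), the vesicle fusion protein VAMP7 (0.68), the mitochondrial ribosomal protein MRPS30 (0.66) and AMOTL1 (0.65), an angiomotin-like scaffold. Over the 16 retinas these were 0.44, 0.31, 0.48, 0.57, 0.15, 0.20, 0.51 and 0.57 in the same order. All 10 kept their sign over the 16 retinas, but only 4 kept an r over 0.5. The second probe set of NFIA had an r of -0.18 (0.27 over the 16), so its probe sets disagreed. IL27RA, VAMP7 and MRPS30 were dim, at means of 1.83, 2.21 and 2.13.

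Among the same genes the lowest correlation with SST was that of ALDH1A1, a retinoic acid enzyme that marks the dorsal retina in mouse and chick, with r of -0.73 and rho of -0.55. ALDH1A1 ranged from 2.72 through 6.24 to 6.89 in sialyllactose retinas and from 3.97 through 5.31 to 6.97 in control retinas. Sialyllactose replicate 1 held the lowest value of its group, while control replicate 4 was second lowest of its group at 4.70. Over the 16 other retinas r was -0.41, and the second ALDH1A1 probe set gave -0.71 over 18 retinas and -0.45 over 16.

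EFNB2, the ligand ephrin B2, which is expressed in the dorsal retina of mouse and chick, followed a similar pattern with r of -0.68 and rho of -0.63. It ranged from 1.98 through 3.07 to 3.45 in sialyllactose retinas and from 2.27 through 2.42 to 3.61 in control retinas. EFNB2 was lowest of its group in sialyllactose replicate 1. Among control retinas EFNB2 and ALDH1A1 were both lowest in replicate 8, where SST was 3.66. The r of EFNB2 was -0.87 among sialyllactose retinas and -0.50 among control retinas. Its r over the 16 retinas was -0.58, the only one of the 6 lowest genes beyond -0.5. The other genes of low r were HSPA9, a mitochondrial chaperone (-0.72), PLPPR2, a phospholipid phosphatase-related protein (-0.70), FAM57B, a gene of ceramide metabolism (-0.70), and RAMP2, a subunit of the adrenomedullin receptor (-0.68). Over the 16 retinas these were -0.36, -0.10, -0.09 and -0.38. The other HSPA9 probe sets had r of -0.28 and -0.09 (-0.20 and -0.24 over the 16). The second PLPPR2 probe set had -0.21 (0.20 over the 16).

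**Figure D2:**
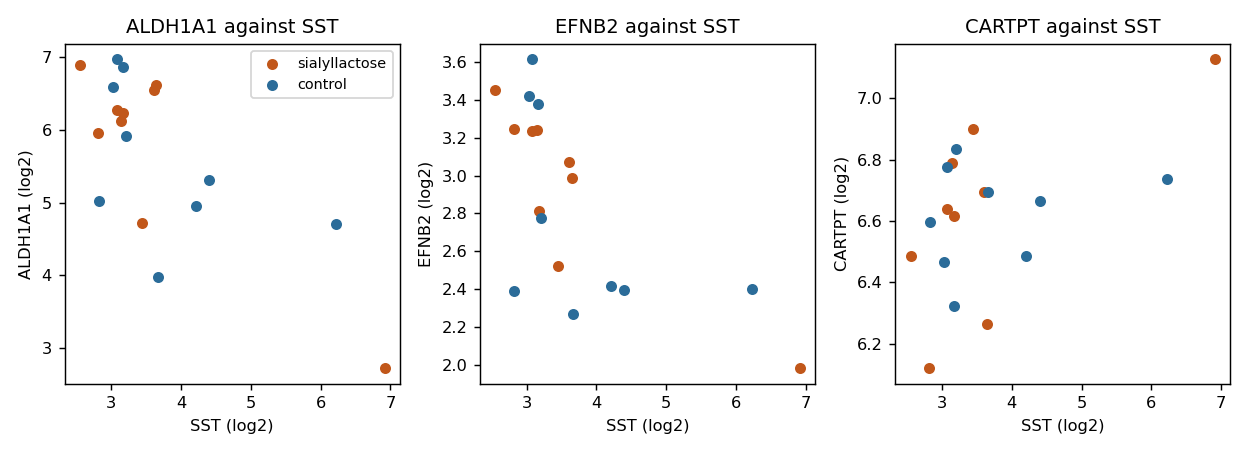
Log2 levels of ALDH1A1, EFNB2 and CARTPT (vertical axes) against SST (horizontal axes) in 18 retinas, sialyllactose in orange and control in blue. The retina with the highest SST, 6.91, has the lowest ALDH1A1 (2.72) and EFNB2 (1.98) and the highest CARTPT (7.13), and most other points lie in a narrow range of SST.

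Of the 4 tested genes of the dorsal retina, 3 had negative and 1 a positive r with SST, with a median of -0.46 (-0.38 over the 16 retinas), beside a median of 0.03 over all 5708 tested genes, of which 54.6% lay above 0. TBX2, a dorsal transcription factor, had an r of -0.24 (-0.35 over the 16 retinas). BMP4, a dorsal signal in the embryonic retina, had 0.45, which was -0.21 over the 16 retinas, and was dim, at a mean of 2.16. CYP26A1, which degrades retinoic acid, was the only tested gene of the ventral and central list and had an r of 0.14 (0.20 over the 16). None of these associations passed the limma test, and the part that the region sampled had in them was not tested.

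The amacrine, ganglion cell and Müller glia lists had medians smaller in size than that of the dorsal list. All 5 tested amacrine genes had a positive r with SST, from 0.02 for the transcription factor TFAP2B to 0.34 for GAD1, with a median of 0.28. Over the 16 retinas the r of GAD1 was -0.16, that of TFAP2B -0.05 and the median 0.03. CHAT, which makes acetylcholine in starburst amacrine cells, and LHX9 were among the dimmest 30% and not tested. All 6 tested ganglion cell genes also had a positive r, from 0.10 (0.06 over the 16) for the ubiquitin hydrolase UCHL1 to 0.38 (0.28 over the 16) for the RNA-binding protein RBPMS, with a median of 0.29 (0.13 over the 16 retinas). Müller glia genes had a median of 0.07, with 9 of 14 above 0, and the median was -0.09 over the 16 retinas.

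The sign of the correlation between pigment epithelium markers and SST depended on the 2 retinas of highest SST. Of 7 measured markers 6 were tested, and their summed level, on the log2 scale, ran from 6.91 to 8.45 in sialyllactose retinas and from 6.32 to 8.63 in control retinas and had an r of 0.54 with SST (-0.25 over the 16 retinas). The median r of the 6 markers was 0.16 over 18 retinas and -0.23 over 16, and none passed the limma test. TTR, transthyretin, which carries thyroxine and retinol-binding protein, had an r of 0.46 over 18 retinas and -0.21 over 16, and TYRP1 was too dim to be tested. All 13 tested interferon response genes had a negative r with SST, beside 2593 of all 5708 genes. Their median was -0.25 (-0.37 over the 16 retinas). ISG15, MX1 and IFIT3 were each highest in sialyllactose replicate 7 and next in replicate 4 of that group, so the 13 genes are not independent. Their part in the spread of SST was not tested.

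SST was next set against the genes that act with a peptide. Of the 11 tested peptide precursors, 4 had a positive and 7 a negative r with SST, with a median of -0.11 that was 0.01 over the 16 retinas. CARTPT had the highest, 0.51 (0.13 over the 16), and the natriuretic peptide gene NPPB the lowest, -0.33 (-0.05 over the 16). NPPB was dim, at a mean of 2.12. Of 10 tested granins and granule genes, 4 were above 0, with a median of -0.02 over 18 and over 16 retinas. Among them chromogranin B (CHGB) had 0.02 (0.17 over the 16) and chromogranin A (CHGA) -0.23 (-0.0058 over the 16). CHGA was dim, at a mean of 1.63. Of 6 tested processing genes, 5 were above 0, with a median of 0.25 (0.18 over the 16). PCSK1 and PCSK2, the convertases that cut precursors, had 0.28 and 0.11 (0.21 each over the 16), and CPD, a carboxypeptidase that trims the cut ends, had -0.47 (-0.55 over the 16 retinas). Of the somatostatin receptors SSTR3 had an r of -0.34 and SSTR5 of 0.03, which were -0.06 and 0.41 over the 16 retinas, and SSTR1 was too dim to be tested.

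Genes of the cyclic AMP pathway were examined because transcription of both peptide genes is known to respond to it. Genes induced by neuronal activity were examined beside them. Of 14 tested activity-induced genes, 5 had a positive r with SST, with a median of -0.13 (0.00027 over the 16 retinas). FOS had -0.57 (-0.44 over the 16 retinas) and BTG2, an anti-proliferative early gene, -0.57 (-0.57 over the 16). FOS was lowest of its group in sialyllactose replicate 1 at 2.48, against a group median of 3.72, and second lowest in control replicate 4 at 2.72, against a group median of 3.49. NR4A2, a nuclear receptor, had a positive r of 0.54 (0.30 over the 16). The 7 tested cyclic AMP and CREB genes had a median of 0.07 with SST (0.05 over the 16) and 0.16 with SCG2. None of these genes passed the limma test for SST or SCG2.

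**Figure D3:**
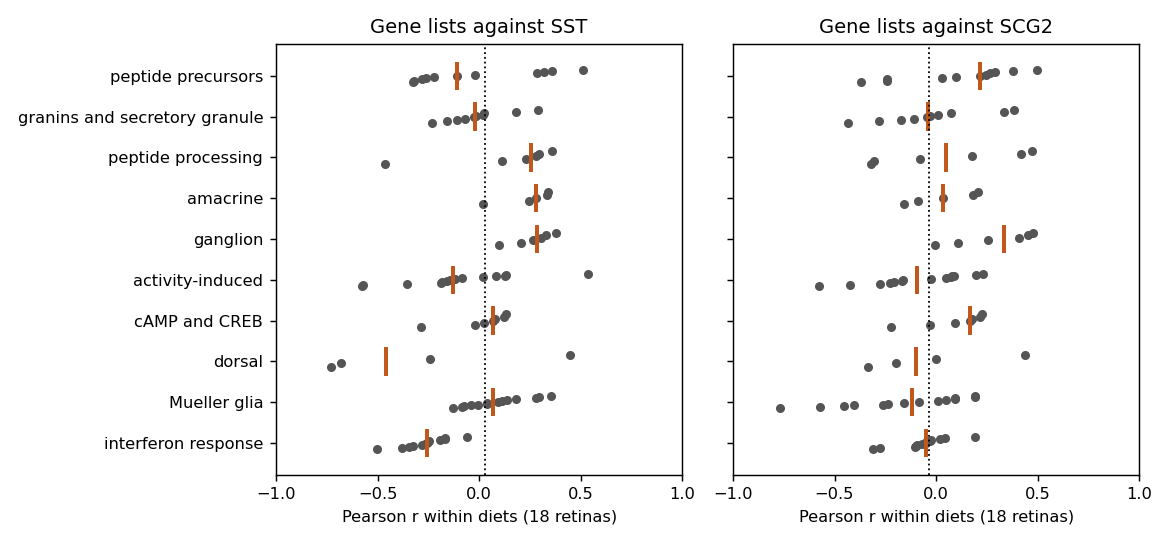
Pearson r of list genes with SST (left) and SCG2 (right), over deviations from the diet mean in 18 retinas. Grey points are genes, orange bars are list medians and the dotted line is the median over all tested genes (0.03 for SST, -0.04 for SCG2); the dorsal list has the lowest median for SST (-0.46), and GLUL is the lowest Müller glia point for SCG2 (-0.77).

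The same fit for SCG2 called 1 of 16798 probe sets, a percentage of 0.00595, and 6.35% had an unadjusted p under 0.05 (2.7% rising and 3.66% falling with SCG2). The called probe set has no gene symbol in the annotation used and fell as SCG2 rose, with r of -0.90, rho of -0.93 and a limma adjusted p of 0.00315. Its level ran from 1.94 through 2.59 to 2.98 in sialyllactose retinas and from 2.65 through 2.77 to 3.01 in control retinas. The relation had an r of -0.90 among sialyllactose retinas and -0.95 among control retinas. Its adjusted p was 0.00308 to 0.0295 in the 18 fits without 1 retina. The call ended without the 2 retinas of highest SCG2 (lowest limma adjusted p = 0.0503), although r over the other 16 was -0.90. It also ended in either diet alone and with the dimmest 50% of probe sets left out, which removed the probe set itself.

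A measure of RNA integrity moved with SCG2. The difference between the 3′ and 5′ control probe sets of GAPDH, which grows as the labelled RNA becomes shorter, had an r of -0.67 and a rho of -0.71 with SCG2, and of 0.09 and 0.12 with SST. It averaged 1.41 in sialyllactose retinas (1.25 to 1.74) and 1.43 in control retinas (1.28 to 1.68), on the log2 scale. The same difference for actin had an r of -0.43 with SCG2 and 0.34 with SST. With the GAPDH difference as a covariate, added after the data were seen, the diet difference of SCG2 was 0.28, and the number of probe sets called with SCG2 was 0 (lowest limma adjusted p = 0.0797). The called probe set then had a partial r of -0.87.

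**Figure D4:**
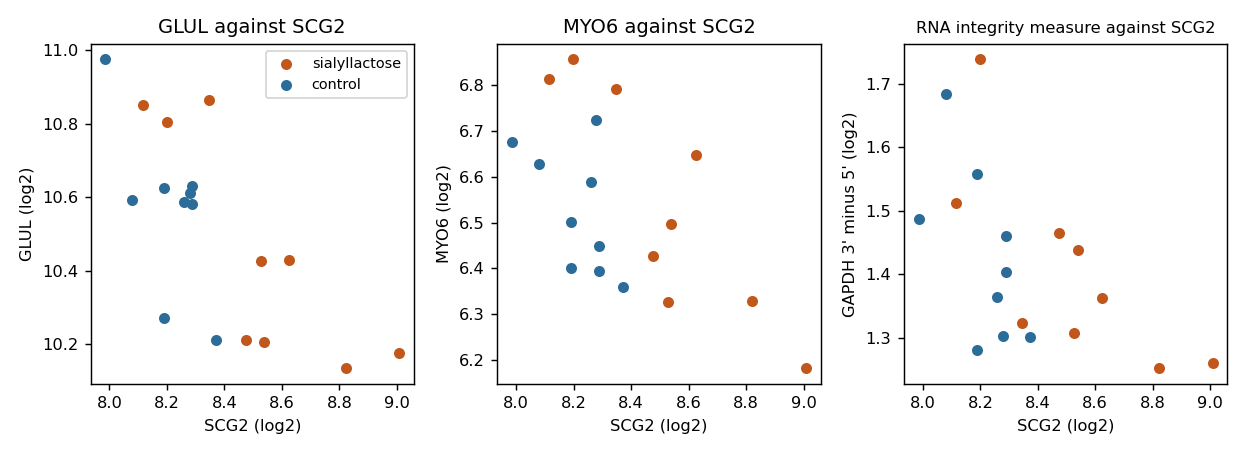
Log2 levels of GLUL and MYO6 and the GAPDH 3′ minus 5′ difference (vertical axes, log2) against SCG2 (horizontal axes, log2) in 18 retinas, sialyllactose in orange and control in blue. All 3 are lower where SCG2 is higher, with r of -0.77, -0.80 and -0.67 within diets.

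Among genes taken at their brightest probe set, NSUN3, a mitochondrial tRNA methyltransferase, had the highest r with SCG2, 0.80 with a rho of 0.72. NSUN3 ranged from 1.47 through 1.76 to 1.95 in sialyllactose retinas and from 1.41 through 1.67 to 1.97 in control retinas. It was highest in the retina of highest SCG2 in each diet, sialyllactose replicate 6 and control replicate 8, and lowest in the retina of lowest SCG2 in each. Next among genes with 1 sign of r in both diets were MSC, a transcription factor (0.74), OXNAD1 (0.69) and TMEM123 (0.69). They were followed by the fibrinogen-like protein FGL2 (0.68), the protein kinase A anchor AKAP13 (0.68) and the orexin receptor HCRTR2 (0.65). The others were the polycomb ubiquitin ligase RNF2 (0.64), the chemokine receptor CCR7 (0.64) and the molybdenum cofactor gene MOCS2 (0.63). Of these 10 genes 9 kept an r over 0.5 without the 2 retinas of highest SCG2, the exception being FGL2 at 0.48. FGL2 and OXNAD1 had r of 0.87 and 0.82 among sialyllactose retinas but 0.20 and 0.46 among control retinas. The remaining genes had r of 0.64 to 0.87 among control retinas. Each of the 10 had a negative r with the GAPDH difference, from -0.71 to -0.27, and a partial r with SCG2 of 0.38 to 0.73 given that difference. Other probe sets had lower r with SCG2 for AKAP13 (0.20 and 0.14) and MOCS2 (0.03), while those of FGL2 had 0.45 and 0.75. NSUN3, MSC, RNF2 and CCR7 were dim, at means of 1.69, 2.02, 2.17 and 1.85.

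MYO6, an actin motor that moves toward the minus end, had the lowest r with SCG2 among genes at their brightest probe set, -0.80 with a rho of -0.68. It ranged from 6.18 through 6.496 to 6.86 in sialyllactose retinas and from 6.36 through 6.500 to 6.73 in control retinas, and was lowest where SCG2 was highest in each diet. ABCB6, a porphyrin transporter, had an r of -0.80, GPATCH3 -0.76, CDC42SE2 -0.75 and PC, pyruvate carboxylase, -0.74. All 6 lowest genes kept an r beyond -0.5 without the 2 retinas of highest SCG2. CDC42SE2 and GPATCH3 had r of -0.83 and -0.84 among sialyllactose retinas but -0.18 and -0.30 among control retinas. For MYO6, ABCB6, GLUL and PC r among control retinas was -0.55, -0.65, -0.65 and -0.57. Across the 6 genes r with the GAPDH difference was 0.38 to 0.73, and partial r with SCG2 -0.74 to -0.49. The limma adjusted p of the 16 named genes was 0.320 to 0.570. The second probe set of GPATCH3 had an r of 0.15 and that of ABCB6 -0.08, so the probe sets of each gene disagreed. GPATCH3 was dim, at a mean of 2.33.

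GLUL, glutamine synthetase of Müller glia, had an r of -0.77 and a rho of -0.69 with SCG2. It ranged from 10.1 through 10.4 to 10.9 in sialyllactose retinas and from 10.2 through 10.6 to 10.97 in control retinas. Its other probe sets had r of -0.43 and 0.02, so they disagreed in size and in sign. Among Müller glia genes RLBP1, a retinoid carrier, had -0.57, the glutamate transporter SLC1A3 -0.45 and the lipid carrier APOE -0.41. Without the 2 retinas of highest SCG2 these were -0.52, -0.15 and -0.42. The list as a whole had 6 of 14 genes above 0, beside 44.4% of all tested genes. Its median was -0.12 (0.01 without the 2 retinas), beside -0.04 over all tested genes. The summed level of the list, to which GLUL as its brightest gene adds most, had an r of -0.51 with SCG2 (-0.44 without the 2 retinas). The part of Müller glia in the SCG2 values was not tested.

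**Figure D5:**
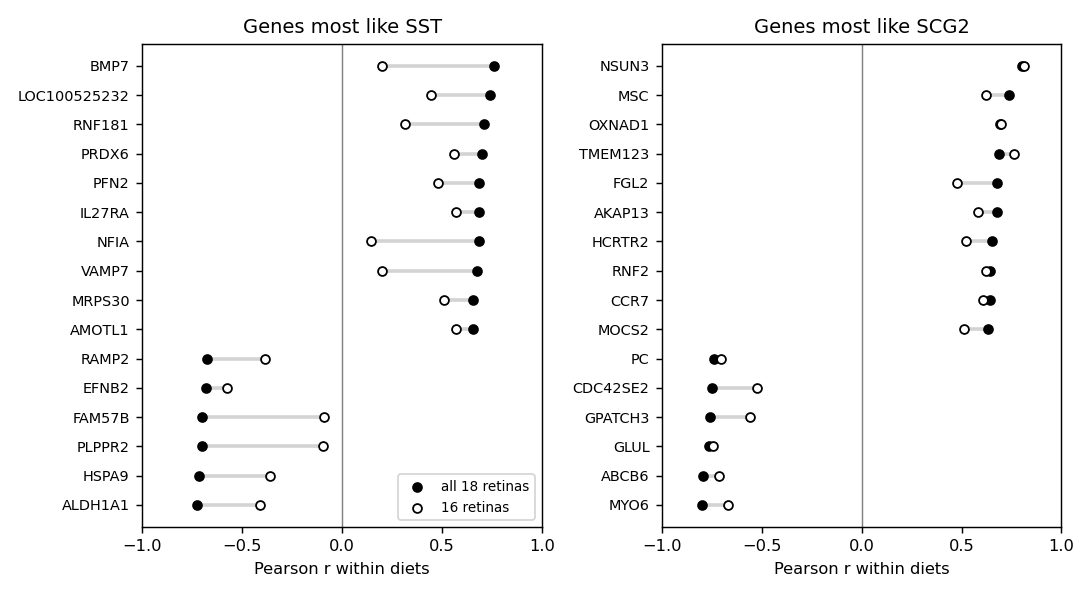
Pearson r within diets of the 10 highest and 6 lowest genes with 1 sign in both diets, SST left and SCG2 right. Filled points use all 18 retinas and open points the 16 retinas without the 2 farthest from the median of SST or of SCG2; for SST, BMP7 is 0.76 over 18 and 0.20 over 16, while for SCG2, NSUN3 stays near 0.80.

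Of the 6 tested ganglion cell genes 5 had a positive r with SCG2, beside 44.4% of all tested genes. The ganglion median was 0.33 (0.38 without the 2 retinas of highest SCG2). UCHL1 led at 0.48, with STMN2, a microtubule regulator of growing axons, at 0.45. The r values of this paragraph were not adjusted for the GAPDH difference, which itself had an r of -0.67 with SCG2. Of the 11 tested peptide precursors 8 were above 0, beside 44.4% of all tested genes. The precursor median was 0.21, which was 0.07 without the 2 retinas of highest SCG2 and 0.04 without sialyllactose replicate 9. CARTPT was again the highest, at 0.50 (0.36 without the 2 retinas). Among the processing genes QPCT, which forms the pyroglutamate end of peptides, had 0.47 and PAM, which amidates them, 0.42, while PCSK2 had -0.30. Without the 2 retinas these were 0.43, 0.57 and -0.39, and the list's median was 0.05 with all retinas and 0.16 without the 2. The other granin and granule genes gave a median of -0.04 (-0.02 without the 2), with the dim CHGA at 0.38 (0.28) and CHGB at -0.11 (0.20). Of the activity-induced genes JUN had the lowest r, -0.58 (-0.40 without the 2), and the list's median was -0.09 (-0.04). The 3 tested probe sets of CREM, a cyclic AMP-responsive repressor and activator, had r of -0.22, 0.44 and 0.67 (-0.18, -0.10 and 0.40 without the 2), so they disagreed.

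The diet difference of these partner genes was small. Of the 6 processing genes 2 had an unadjusted limma p under 0.05, beside 6.3% of all probe sets, PCSK2 with a difference of 0.24 (95% interval 0.05 to 0.42) and CPD with -0.20 (-0.38 to -0.02). PCSK2 was measured at 2.08 ± 0.16 in sialyllactose retinas and 1.84 ± 0.23 in control retinas, and CPD at 4.02 ± 0.16 in sialyllactose retinas and 4.22 ± 0.22 in control retinas (log2, SD, n = 9 each). SSTR3 had a difference of 0.19 (95% interval 0.03 to 0.34), with 2.23 ± 0.17 in sialyllactose retinas and 2.05 ± 0.16 in control retinas. Of the 14 activity-induced genes 1 had an unadjusted p under 0.05, BDNF, a neurotrophin, at 2.16 ± 0.11 in sialyllactose retinas and 1.99 ± 0.13 in control retinas, a difference of 0.17 (95% interval 0.05 to 0.30). No gene of the peptide precursor, granin, amacrine or ganglion lists had an unadjusted p under 0.05. After adjustment over all probe sets none of these genes passed in limma.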

How the data were processed

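Total RNA of 18 piglet retinas, 9 per diet, was measured on Affymetrix pig arrays. The authors made the values with RMA in Affymetrix Expression Console, per the submitters' processing notes, and the deposited table holds 1 log2 value per probe set and array (0.146 to 12.8). RMA in general adjusts background, normalizes quantiles between arrays and summarises probes; the settings and a genome build are not given in the sources used here, so no coordinates are given. RMA shrinks differences of dim probe sets and gives no detection call. Groups and replicate numbers came from the titles, and nothing names litters or batches, so p-values measure the spread between these samples.

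After 124 control probe sets, the dimmest 30% by mean over all arrays (7200) were left out, leaving 16799. The platform annotation gave 10099 probe sets 1 symbol, 198 several and 13826 none; 9989 of the named ones matched a RefSeq gene table and 0 symbols changed. Genes are taken at their brightest tested probe set. The diet difference, sialyllactose minus control, was fitted with limma 3.58.1 in R 4.3.3 (lmFit, eBayes). Associations used limma with the member's deviation from its diet mean and diet as terms. Adjusted p-values are Benjamini-Hochberg over all tested probe sets, threshold 0.05. SST and SCG2 were related by 100000 permutations within diets and exactly within each diet. Named for each gene are the 10 highest and 6 lowest correlations with 1 sign in both diets, and list genes. The members and lists were chosen with earlier results of these data known.

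The limma steps were tested on simulated data. Replicate numbers are shared between diets, but deviations of same-numbered retinas correlated between -0.11 and 0.16, over 0.1 in 3 of 9 pairs, so the numbers were not taken to pair retinas. Alternatives were other filters, scalings, weights, covariates, the replicate block, each diet alone and leaving out retinas.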

Additional observations from a re-analysis of the deposited data

Results flagged for a closer look

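Of 68 groups of 9 retinas checked, over 34 genes, 3 held a value set far apart from the others by Dixon's test, which is below the 1 in 20 that chance alone flags. SST was selected on its spread, so its values are a description here. In sialyllactose retinas the highest SST value, 6.91 in replicate 1, lay apart from the next, 3.65, by 0.749 of the group's range. In control retinas the highest SST value, 6.22 in replicate 4, lay apart from the next, 4.40, by 0.537 of the range. In sialyllactose retinas the highest value of PFN2, 8.06 in replicate 1, lay apart from the next, 7.95, by 0.564 of the range. PFN2 was among the genes with the highest correlations with SST, so its value is not independent of that of SST.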

How the results depend on the processing

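Of 146 values under alternative settings, 132 kept their direction and their side of the threshold. The number of probe sets called with SCG2 was 0 instead of 1, by limma, with the lowest 50% of probe sets left out (lowest adjusted p = 0.234; the called probe set was itself removed), with the replicate number as a block (0.611), without the 2 retinas farthest from the SCG2 median (0.0503), among sialyllactose retinas alone (0.569), among control retinas alone (0.206) and with the GAPDH covariate (0.0797); at an unadjusted p under 0.05 the main setting gave 1067. It was 1 in all 18 fits that left out 1 retina, and the number called with SST was 0 to 1 (1, BMP7, without control replicate 5). The r of SST with SCG2 turned positive with the replicate block (0.0034), among control retinas alone (0.015) and with the GAPDH covariate (0.050), and leaving out 1 retina gave -0.13 to 0.023. The diet difference of SST ran from -0.57 to 0.15 and that of SCG2 from 0.24 to 0.35 over the same fits, and the replicate block changed no other call. The cause was not tested beyond the removal named. Of 1015 correlations of named genes under alternatives, 0 turned and 1 passed the threshold. The named genes were chosen in these arrays for 1 sign in both diets, so their sign in each diet alone was fixed in advance. Settings that changed only the filter, the weights or the threshold left r as it was, so they could not turn it. With the lowest 50% of probe sets left out, 23 of the 32 named genes remained. Means over probe sets gave no alternative, since each member has 1 probe set. Signal over background is unknown for RMA values.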

Other observations

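No gene of the remaining cell types passed the limma test for either peptide gene. All 4 tested cone genes had a negative r with SCG2, not adjusted for the GAPDH difference, beside 3171 of all 5708 genes. The cone median was -0.28, led by ARR3 at -0.48 and the cone kinase GRK7 at -0.48. With SST the cone list had a median of -0.26 (-0.05 without the 2 retinas of highest SST), and OPN1SW, the short-wave cone opsin, had the lowest r, -0.57 (-0.27 without them). The 3 tested horizontal cell genes had negative r with both, with medians of -0.15 for SST and -0.29 for SCG2. The 9 tested genes of vessels had medians of -0.04 for SST and -0.08 for SCG2. HBB, the only tested red blood cell gene, had an r of 0.37 with SST and -0.14 with SCG2, and both signs turned, to -0.08 and 0.08, without the 2 retinas farthest from the median of each. AIF1, a microglia gene, had an r of -0.52 with SST (-0.53 without the 2 retinas), and the water channel gene AQP5 had -0.54 (-0.19 without them). AIF1 and AQP5 were dim, at means of 1.70 and 2.15.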
